A study of Rattus norvegicus with 12 samples.

Results

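Androgens and estrogens are made in the ovary in a relay between cell types. Theca cells turn progestins into androgens with the enzyme encoded by Cyp17a1, and granulosa cells turn androgens into estrogens with aromatase, the product of Cyp19a1. Both are cytochrome P450 enzymes of the endoplasmic reticulum and draw their electrons from a shared reductase, the product of Por, while cytochrome b5, the product of Cyb5a, favours the step of the Cyp17a1 enzyme that yields androgens. Sult1e1 encodes the sulfotransferase that inactivates estrogens by adding a sulfate group. These 5 genes were chosen by name as the enzymes of androgen and estrogen synthesis, with the electron donors and the inactivating enzyme that belong to them. All 5 were found among the 19730 genes of the deposited table, and 4 of them had a mean of at least 1 FPKM (fragment counts scaled by transcript length and library size) over the 12 libraries, as did 13430 genes in all. Sult1e1 was below that level.

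The libraries were made from whole ovaries of wild-type female Sprague Dawley rats at 15 weeks of age, with 4 rats in each of 3 groups. Control rats were fed standard food. The PCOS group, a model of polycystic ovary syndrome, was given the aromatase inhibitor letrozole by mouth (1 mg/kg/day) with a high-fat diet for 30 days, and the PCOS-MV group was then given mogroside V, a sweet triterpenoid glycoside of the Luo-Han-Guo fruit, at 600 mg/kg/day for 30 days. The methods of the study state letrozole and the diet for the 30 days before mogroside V. What the PCOS rats received while PCOS-MV rats had mogroside V is not given in the sources used here, so in PCOS-MV against PCOS mogroside V and its gavage cannot be told apart. Letrozole and diet were given together, so their parts in the model cannot be told apart. Letrozole blocks the aromatase protein itself, and the values here are of the Cyp19a1 transcript, not of enzyme activity. The stage of the estrous cycle at collection is not given in the labels. In whole ovaries, fewer cells of a type and less RNA per cell cannot be told apart.

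The sums of FPKM per library lay between 339830 and 373758. The number of reads per library is not given, and the depth of the 11 other libraries relative to Control replicate 1, estimated from the step between low FPKM values, ran from 0.918 to 1.12. Control replicate 3 stood apart from its group, with a correlation as low as 0.921 with another control library. It held 32.3 FPKM of Epcam, an epithelial gene, and its summed oviduct epithelium markers were 136 FPKM. Member values without this library are given where it moved a call or a direction.

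Cyp17a1 (ENSRNOG00000020035, chromosome 1, minus strand, 266422132 to 266428239 in the coordinates of the file, 8 exons) encodes the hydroxylase and lyase that commits progestins to androgens. In the control ovaries it was at 63.6, 27.3, 16.97 and 30.7 FPKM in replicates 1 to 4. In the PCOS ovaries it was at 1866, 1054, 655 and 1187 FPKM, so every PCOS library lay above every control library. In the PCOS-MV ovaries it was at 88.1, 1.57, 53.4 and 6.41 FPKM. These 4 libraries all lay below the lowest PCOS library, and against the control range 1 was above it, 1 inside it and 2 below it, with the highest 56.2 times the lowest.

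The mean Cyp17a1 level was 34.6 ± 20.1 FPKM (SD, n = 4) in Control, 1190 ± 504 FPKM (SD, n = 4) in PCOS and 37.4 ± 41.1 FPKM (SD, n = 4) in PCOS-MV, a 34.4-fold higher mean in PCOS than in Control. On the log2(FPKM + 1) scale Cyp17a1 rose by 5.12 ± 0.41 (SE) in PCOS against Control (limma, adjusted p = 6.3e-05), the sixth highest change of all 13430 genes tested. It fell by 5.997 ± 1.04 (SE) in PCOS-MV against PCOS (limma, adjusted p = 0.00439), the third lowest. The difference between PCOS-MV and Control was -0.87 ± 1.07 (limma, adjusted p = 0.815), with a 95% interval from -3.33 to 1.58, which includes changes of several-fold in either direction. Without PCOS-MV replicate 2, the lowest library, this difference was 0.047. The exact two-sided permutation test gave p = 0.0286 for each of the first 2 comparisons, the smallest p that 4 against 4 libraries can give.

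**Figure D1:**
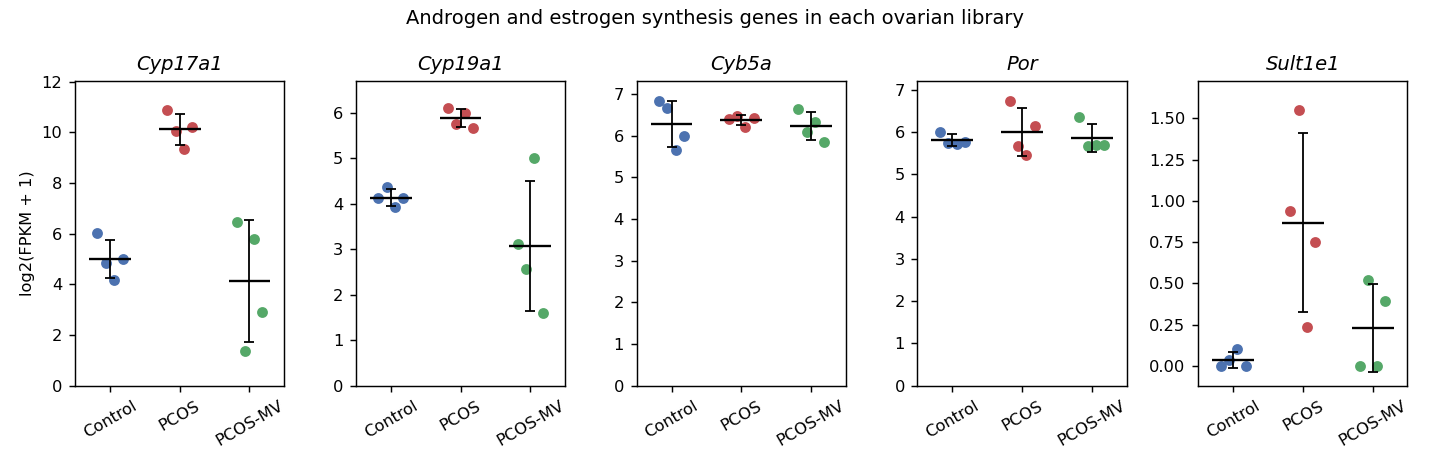
Level of each of the 5 genes in every library, 1 panel a gene with its own y axis in log2(FPKM + 1) and the 3 groups on the x axis. Each point is 1 ovary library, the horizontal bar is the group mean and the error bar is the SD (n = 4). Cyp17a1 and Cyp19a1 stand higher in all 4 PCOS libraries than in any control or PCOS-MV library, whereas the groups overlap for Cyb5a and Por.

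Cyp19a1 (ENSRNOG00000000196, chromosome 8, minus strand, 58744849 to 58772408, 10 exons) encodes aromatase. Its level was narrow in Control, at 16.6, 19.6, 14.2 and 16.5 FPKM. The PCOS libraries held 67.6, 53.0, 63.2 and 50.1 FPKM, all above the control range. The PCOS-MV libraries held 7.70, 4.94, 31.2 and 2.02 FPKM. Replicate 3 of PCOS-MV was above the control range and the other 3 were below it.

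The group means of Cyp19a1 were 16.7 ± 2.24 FPKM in Control, 58.5 ± 8.27 FPKM in PCOS and 11.5 ± 13.3 FPKM in PCOS-MV (SD, n = 4 each). It rose by 1.74 ± 0.12 (SE) on the log2(FPKM + 1) scale in PCOS against Control (limma, adjusted p = 3.6e-05), a 3.5-fold higher mean. It fell by 2.81 ± 0.61 (SE) in PCOS-MV against PCOS (limma, adjusted p = 0.0113). PCOS-MV against Control gave -1.07 ± 0.62 (limma, adjusted p = 0.641; 95% interval -2.48 to 0.35). That difference was -1.71 without PCOS-MV replicate 3 and -0.57 without PCOS-MV replicate 4. Cyp17a1 and Cyp19a1 are among the genes the study chose to display from these libraries, so their direction here is not independent evidence.

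Summed markers of the cell types that hold the enzymes stood apart in PCOS, while the genes within each list went both ways. The summed theca and interstitial markers ran from 485 to 576 FPKM in Control, from 1521 to 1929 in PCOS and from 448 to 598 in PCOS-MV. Insl3, a theca hormone, made up most of the PCOS sum, with a mean of 1032 FPKM against 5.70 in Control and 7.89 in PCOS-MV. Of the 11 theca and interstitial markers tested, 5 rose and 3 fell in PCOS, and 1 rose and 5 fell in PCOS-MV against PCOS. Granulosa markers summed to 1022 to 1459 FPKM in Control, 1563 to 2276 in PCOS and 912 to 1514 in PCOS-MV. By group means, Inha and Gja1 made up most of this sum in every group. Of the 12 granulosa markers, 4 rose, 1 fell and 7 did not pass in PCOS, with a median change of -0.0001. Luteal markers went the other way, from 5587 to 6486 FPKM in Control to 1534 to 2745 in PCOS and 3913 to 9379 in PCOS-MV, and 6 of 12 fell and 3 rose in PCOS. By group means, Star, Scarb1 and Akr1c18 made up most of the luteal sum in every group. The part of these shifts in the values of Cyp17a1, Cyp19a1 and Star was not tested.

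The share of all genes tested that rose in PCOS against Control was 11.9% and the share that fell was 15.6%. Of the 4 members tested, 2 rose and none fell. In PCOS-MV against PCOS, 14.3% of all genes tested rose and 11.4% fell, and 2 of the 4 members fell. In PCOS-MV against Control, 0.00745% of all genes (1 of 13430) passed the test and 0 of the 4 members did, while 1142 genes had an unadjusted p under 0.05 in limma. All 3 comparisons share libraries in pairs, so the fall after mogroside V and the rise in the model rest on the same PCOS values.

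**Figure D2:**
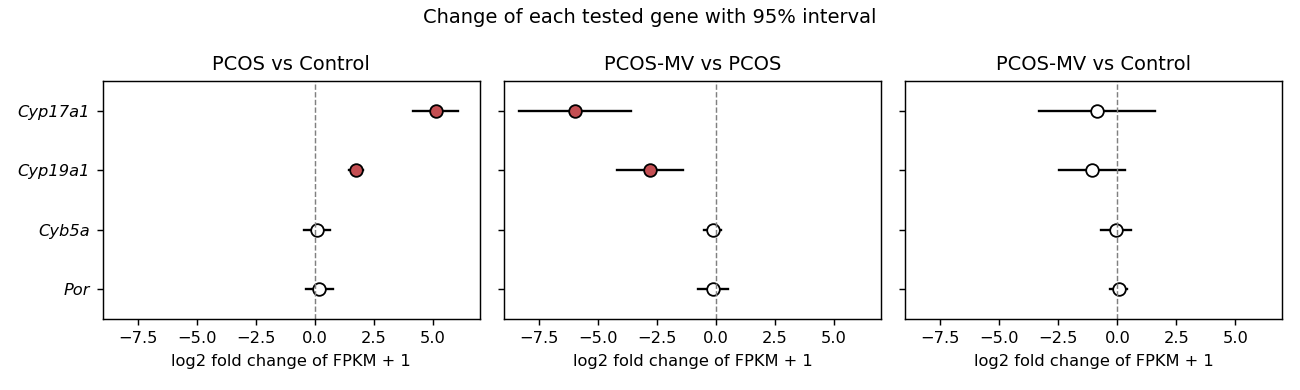
Log2 fold change of FPKM + 1 (x axis) for the 4 genes tested (y axis), 1 panel for each of the 3 comparisons, with 95% intervals from limma and filled points where the adjusted p was under 0.05. The changes of 5.12 and -5.997 for Cyp17a1 and of 1.74 and -2.81 for Cyp19a1 lie clear of 0, and the intervals for Cyb5a and Por cross 0 in all 3 panels.

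The electron donors did not pass the test in any comparison. Cyb5a (ENSRNOG00000015205, chromosome 18, plus strand, 81694808 to 81726821, 5 exons) was at 113, 99.5, 49.3 and 62.4 FPKM in Control, at 83.1, 88.3, 72.5 and 84.2 FPKM in PCOS and at 98.4, 66.9, 79.5 and 56.9 FPKM in PCOS-MV. The control libraries spanned the whole range of both other groups. PCOS differed from Control by 0.09 ± 0.24 (SE) on the log2(FPKM + 1) scale (limma, adjusted p = 0.813), with a 95% interval from -0.46 to 0.64. Without Control replicate 3 this difference was -0.12. PCOS-MV differed from PCOS by -0.14 ± 0.16 (limma, adjusted p = 0.539; 95% interval -0.51 to 0.22) and from Control by -0.05 ± 0.28 (limma, adjusted p = 0.965).

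Por (ENSRNOG00000001442, chromosome 12, minus strand, 23998411 to 24046814, 16 exons) encodes the reductase that passes electrons from NADPH to the microsomal P450 enzymes. It was at 63.7, 52.5, 51.5 and 53.1 FPKM in Control and at 106, 49.7, 43.1 and 70.1 FPKM in PCOS. In PCOS-MV it was at 80.8, 50.1, 51.2 and 51.1 FPKM. Replicate 1 was the highest library of each group. The difference was 0.20 ± 0.25 (SE) on the log2(FPKM + 1) scale in PCOS against Control (limma, adjusted p = 0.596; 95% interval -0.37 to 0.77), and it was -0.05 without PCOS replicate 1. PCOS-MV against PCOS gave -0.14 ± 0.28 (limma, adjusted p = 0.740; 95% interval -0.78 to 0.49), and PCOS-MV against Control gave 0.05 ± 0.16 (limma, adjusted p = 0.936). A p that missed the threshold does not show that Por was alike in the groups, and the intervals give the changes that the spread allows.

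The level of Cyp17a1 relative to its partner genes was compared within libraries. The FPKM of Cyp17a1 was 0.329 to 0.997 times that of Por in Control, 15.2 to 21.2 times in PCOS and 0.0313 to 1.09 times in PCOS-MV. The 4 PCOS libraries thus lay close together in this ratio although Cyp17a1 itself differed among them by more than the ratio did. On the log2 scale, after adding 1 FPKM to each gene, the ratio of Cyp17a1 to Por was higher by 4.93 in PCOS than in Control and differed by -5.85 between PCOS-MV and PCOS. Each gave p = 0.0286 in the exact two-sided permutation test, with libraries that did not overlap, and 0.0514 after adjustment over 9 such tests. Neither passed the correction. As 0.0286 is the smallest p that 4 against 4 libraries can give, no ratio could pass unless more of the 9 tests reached it. The miss therefore does not show that the ratios were alike.

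The FPKM of Cyp17a1 was 3.84, 1.39, 1.20 and 1.86 times that of Cyp19a1 in the 4 control libraries. It was 27.6, 19.9, 10.4 and 23.7 times in PCOS, above all of the controls. In PCOS-MV it was 11.4, 0.317, 1.71 and 3.17 times, so replicate 1 there lay inside the PCOS range. The log2 ratio was higher by 3.38 in PCOS than in Control (exact two-sided permutation p = 0.0286, adjusted over 9 tests p = 0.0514). It differed by -3.19 between PCOS-MV and PCOS (exact permutation p = 0.0571, adjusted p = 0.0857), with overlapping libraries. Against Cyb5a, the log2 ratio of Cyp17a1 differed by 5.03 in the first of these comparisons and by -5.85 in the second (exact permutation, adjusted p = 0.0514 for both).

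**Figure D3:**
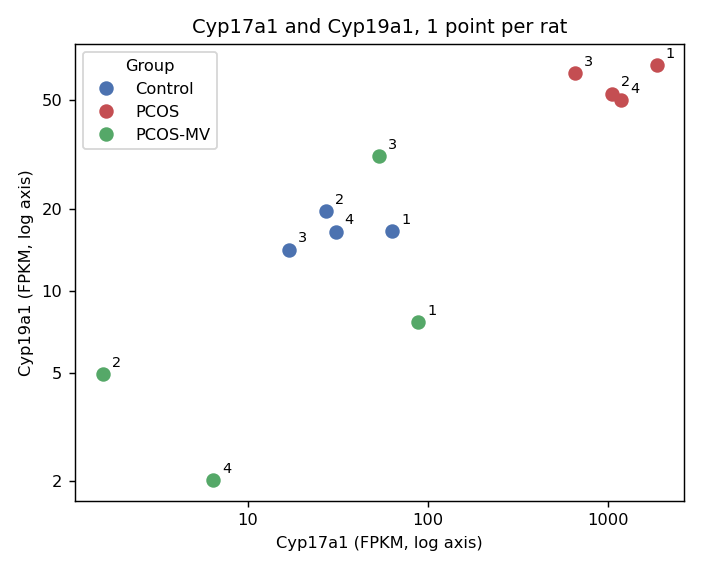
Cyp17a1 (x axis) against Cyp19a1 (y axis) in the 12 libraries, both in FPKM on log axes, 1 point a rat, coloured by group and numbered by replicate. The PCOS libraries form a tight set at the upper right, and the 4 PCOS-MV libraries are spread from 1.57 to 88.1 FPKM of Cyp17a1 and from 2.02 to 31.2 FPKM of Cyp19a1.

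Across the 12 libraries, log2(FPKM + 1) of Cyp17a1 and of Cyp19a1 had a Pearson r of 0.874, and their deviations from the group means had r = 0.588. These points share groups, so r over the libraries mostly describes the difference between groups. Within PCOS-MV the genes did not rank the libraries alike: Cyp17a1 was highest in replicate 1 and Cyp19a1 in replicate 3. Cyp17a1 and Por had r = 0.437 over libraries, and r = 0.556 for the deviations.

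Sult1e1 (ENSRNOG00000001957, chromosome 14, plus strand, 22072024 to 22089248, 8 exons) was low in every library. It was listed at 0 in Control replicates 1 and 4, and at 0.02 and 0.07 FPKM in replicates 2 and 3. The PCOS libraries held 0.92, 1.93, 0.18 and 0.68 FPKM, all above the controls. In PCOS-MV it was listed at 0 in replicates 1 and 3 and was at 0.43 and 0.31 FPKM in replicates 2 and 4, so those libraries overlapped the PCOS range. The mean log2(FPKM + 1) was higher by 0.83 in PCOS than in Control (exact two-sided permutation p = 0.0286, unadjusted; adjusted p = 0.0539 in a limma fit with no filter on low values), and differed by -0.64 between PCOS-MV and PCOS (exact permutation p = 0.0857) and by 0.19 between PCOS-MV and Control (exact permutation p = 0.4286). PCOS replicate 2, which held the highest Sult1e1 value, was also the library with 4.33 FPKM of Alb, the liver gene for albumin, and the part of that in its Sult1e1 value was not tested. Without it the difference between PCOS-MV and PCOS was -0.41, and that between PCOS and Control was 0.61. Without PCOS-MV replicate 2 the difference between PCOS-MV and Control was 0.096. At this low level the pseudocount sets the size of the change, which was 2.76 in PCOS against Control and -1.92 in PCOS-MV against PCOS with a pseudocount of 0.1 in place of 1. Counting Sult1e1, 3 of the 5 members had PCOS libraries wholly above Control, the others being Cyp17a1 and Cyp19a1. Of the 13430 genes tested, 13.8% lay wholly above and 17.2% wholly below. Those genes do not include Sult1e1, so the shares are a like measure only for the 4 members tested. In PCOS-MV against PCOS, 2 of 5 members lay wholly below, against 13.3% of the genes tested, and 16.7% lay wholly above. In PCOS-MV against Control, 0 of 5 members were without overlap, against 5.1% of the genes tested.

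The 250 bases before the gene start are shown for the member that differed at a low level, Sult1e1, and for a member that did not pass the test, Por (RefSeq, build GRCr8). The Sult1e1 window is chr14:20701230-20701479, plus strand, and the Por window is chr12:26635810-26636059, minus strand. Both lie inside the outermost RefSeq span of their gene, which begins further upstream. Capitals mark TGACCTT, the other-strand reading of AAGGTCA, the letters bound by the steroidogenic factor NR5A1.
Sult1e1: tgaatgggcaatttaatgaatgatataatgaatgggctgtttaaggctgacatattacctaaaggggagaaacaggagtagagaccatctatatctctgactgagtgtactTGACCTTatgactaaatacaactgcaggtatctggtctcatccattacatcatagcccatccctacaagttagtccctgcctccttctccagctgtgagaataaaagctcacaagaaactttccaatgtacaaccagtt
Por: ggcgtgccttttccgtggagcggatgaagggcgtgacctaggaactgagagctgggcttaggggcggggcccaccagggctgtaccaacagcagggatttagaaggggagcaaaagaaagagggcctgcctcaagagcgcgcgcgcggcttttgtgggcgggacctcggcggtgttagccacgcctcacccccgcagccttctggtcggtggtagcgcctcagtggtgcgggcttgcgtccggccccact

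The match in Sult1e1 runs from position -139 to position -133 relative to the start, and AAGGTCA on either strand was held by 3.992% of 33469 windows of this length. The Por and Cyb5a windows did not hold it. The letters TGACG, part of the cyclic AMP response element, were held by 18.22% of windows and AGATAA, bound by factors of the GATA family, by 10.3%, and none of the 3 member windows held either. Bases G and C made up 40.4% of the Sult1e1 window, which had 0 CpG pairs, and 66.0% of the Por window, which had 20. The median over all windows was 51.2%. A match is a description of these letters only. The table used has windows for Cyb5a, Por and Sult1e1, and none were printed for Cyp17a1 and Cyp19a1.

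The enzymes and carriers around the members were read from 5 lists, which hold 82 genes of the file, 69 of them tested. In PCOS against Control 18 of the 69 rose and 14 fell, beside 11.9% and 15.6% of all genes tested. In PCOS-MV against PCOS 12 rose and 18 fell, beside 14.3% and 11.4%. In PCOS-MV against Control 0 passed in either direction, beside 1 of all 13430 genes. The same shares stand beside the counts of each list below. The counts include Hsd17b3 and Cyp4f4, which reached the mean of 1 FPKM only through the PCOS libraries, where they are high. Without Control replicate 3, the count in PCOS against Control was 18 higher and 18 lower.

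Before Cyp17a1 in the route stand the genes that take cholesterol to progesterone. Of 8 tested 0 rose and 6 fell in PCOS, with a median change of -1.08 against -0.03 over all genes tested. Star, one of the genes the study displayed, which carries cholesterol into mitochondria, was at 2219 ± 432 FPKM in Control and 716 ± 306 in PCOS and fell by 1.70 on the log2(FPKM + 1) scale (limma, adjusted p = 0.0024), and it was at 2054 ± 605 FPKM in PCOS-MV, a rise of 1.57 (limma, adjusted p = 0.0074). Fdx1, the mitochondrial ferredoxin, was lower by 1.51 in PCOS than in Control (limma, adjusted p = 0.0055) and higher by 1.53 in PCOS-MV than in PCOS (limma, adjusted p = 0.0162). Scarb1, the lipoprotein receptor that imports cholesterol, fell by 1.34 in PCOS (limma, adjusted p = 0.0188), and its rise of 0.70 in PCOS-MV did not pass (limma, adjusted p = 0.3396). In PCOS-MV against PCOS 4 of the 8 rose and 0 fell. The summed luteal markers were lower in every PCOS library than in any control or PCOS-MV library. Star and Scarb1 are part of that sum and, with Akr1c18, most of it, so it is not a separate reading of luteal cells.

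The hydroxysteroid dehydrogenases and 5-alpha reductases, listed by family and not by substrate, were mixed, with 3 of 12 higher and 2 lower in PCOS. Hsd17b3, which makes testosterone from androstenedione, was at 0.166 ± 0.0726 FPKM in Control, 3.16 ± 1.18 in PCOS and 0.163 ± 0.0308 in PCOS-MV. It reached the mean of 1 FPKM needed for testing only through the PCOS libraries, so its place among those that rose is a description and no test is given. Hsd17b11, another member of this dehydrogenase family, was at 53.8 ± 3.02 FPKM in Control, 82.1 ± 2.42 in PCOS and 56.3 ± 3.35 in PCOS-MV, a rise of 0.60 on the log2(FPKM + 1) scale (limma, adjusted p = 0.0003) and a fall of 0.54 (limma, adjusted p = 0.00091). Srd5a1, a steroid reductase that acts on testosterone, was at 10.5 ± 2.92 FPKM in Control, 4.92 ± 0.315 in PCOS and 13.3 ± 7.28 in PCOS-MV. It was lower by 0.92 in PCOS than in Control (limma, adjusted p = 0.0048) and higher by 1.12 in PCOS-MV than in PCOS (limma, adjusted p = 0.0407). Hsd17b1, the reductase of estrogen synthesis in granulosa cells, was at 47.7, 40.8 and 41.5 FPKM in Control, PCOS and PCOS-MV and did not pass in either comparison.

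Other electron carriers and users of Por were also mixed, with 4 of 14 higher and 1 lower in PCOS. Cyp1b1, a P450 that hydroxylates estrogens, rose from 17.2 ± 3.19 to 331 ± 70.4 FPKM and was at 30.7 ± 23.4 FPKM in PCOS-MV, changes of 4.18 and -3.60 on the log2(FPKM + 1) scale (limma, adjusted p = 5.1e-06 and 0.00056). It is one of the genes the study displayed. Cyp4f4, a P450 that may share reads with its close paralogs, was at 0.161 FPKM in Control, 7.12 in PCOS and 0.769 in PCOS-MV. It too was tested only through its PCOS level. Cyb5r3, the cytochrome b5 reductase that reduces the Cyb5a product, rose by 0.55 (limma, adjusted p = 0.0016) and changed by -0.11 in PCOS-MV against PCOS (limma, adjusted p = 0.648).

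Of 12 tested genes of sulfation, desulfation and other conjugation, 4 rose and 1 fell in PCOS, and in PCOS-MV against PCOS 2 rose and 4 fell. Not all of them are conjugating enzymes. The 1 that fell in PCOS was Sumf1, an activator of sulfatases, with a change of -0.23 (limma, adjusted p = 0.0493). Sult1a1, a sulfotransferase of phenols and estrogens, was at 19.7 ± 4.74 FPKM in Control, 56.7 ± 2.93 in PCOS and 19.8 ± 4.00 in PCOS-MV. Papss2, which makes the sulfate donor, was at 10.5 ± 2.52, 40.2 ± 8.12 and 15.1 ± 3.85 FPKM. Ugt1a1, a glucuronosyltransferase whose exons are shared with its gene family, was at 14.5 ± 12.5, 87.4 ± 15.9 and 12.9 ± 3.95 FPKM. These 3 rose in PCOS and fell in PCOS-MV against PCOS (limma, highest adjusted p = 0.0025).

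The 23 receptors and transcription factors tested held 7 that rose and 4 that fell in PCOS. Nr0b1, a repressor that binds NR5A1, was at 3.84 ± 2.04 FPKM in Control, 40.7 ± 16.3 in PCOS and 2.47 ± 2.34 in PCOS-MV. Nr5a1 itself was at 53.9 ± 4.94, 112 ± 7.74 and 67.2 ± 14.3 FPKM in the same order. Its changes in PCOS against Control and PCOS-MV against PCOS were 1.04 and -0.75 on the log2(FPKM + 1) scale (limma, adjusted p = 7.5e-05 and 0.0079). Runx2, a luteal transcription factor, went the other way, at 42.5 ± 11.4 FPKM in Control, 6.82 ± 2.30 in PCOS and 43.2 ± 12.5 in PCOS-MV. Lhcgr, the luteinizing hormone receptor on theca and luteal cells, rose by 1.39 (limma, adjusted p = 0.0104) and fell by 1.89 in PCOS-MV against PCOS (limma, adjusted p = 0.0269).

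**Figure D4:**
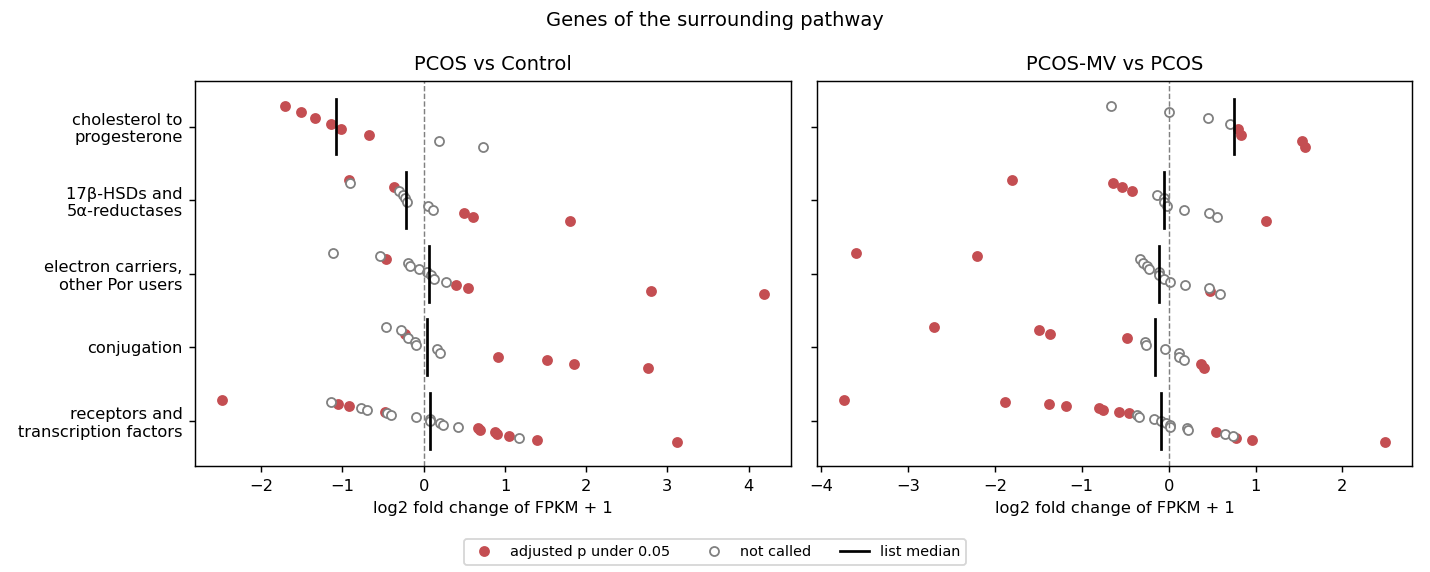
Log2 fold change of FPKM + 1 (x axis) of each tested gene in the 5 lists around the members (rows), for PCOS against Control (left) and PCOS-MV against PCOS (right). Filled points had an adjusted p under 0.05, open points did not, and the vertical bar is the median of the list, which lies at -1.08 and 0.75 for cholesterol to progesterone.

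**Figure D5:**
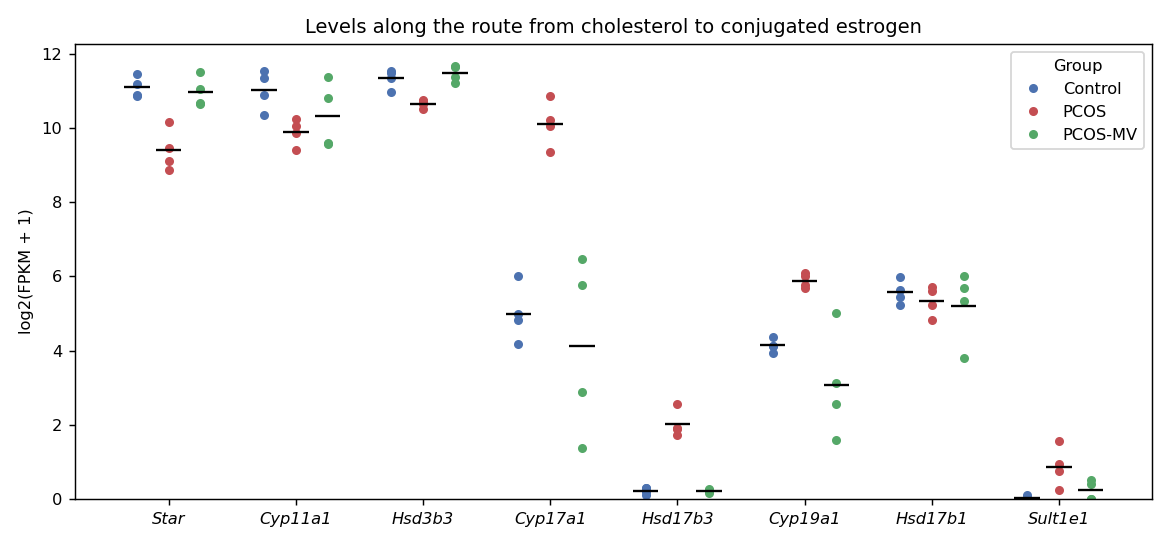
Level in log2(FPKM + 1) (y axis) of 8 genes in order along the route from cholesterol to conjugated estrogen (x axis), 1 point a library coloured by group, with bars for the group means. Star is lower in every PCOS library than in any control library, whereas Cyp17a1, Hsd17b3 and Cyp19a1 are higher.

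The genes whose levels most resembled each member over the 12 libraries were found by Pearson r of log2(FPKM + 1). For Cyp17a1 these were Tas1r1 (r = 0.9895), Fabp3 (r = 0.974) and Ctsh (r = 0.9739), and their deviations from the group means had r = 0.9611, 0.8752 and 0.9216. Tas1r1 was low, at 0.818 FPKM in Control, 2.22 in PCOS and 0.790 in PCOS-MV. It reached the mean of 1 FPKM only through the PCOS libraries, where Cyp17a1 is high, so its place here is a description. Fabp3, a fatty acid binding protein, was at 38.9 FPKM in Control, 344 in PCOS and 44.6 in PCOS-MV. For Cyp19a1 they were Omd (r = 0.9543), Mtrf1l (r = 0.9327) and Inhba (r = 0.9263), with r = 0.8303, 0.8099 and 0.8986 for the deviations. Inhba, the activin subunit made by granulosa cells, was at 98.6 ± 20.9, 253 ± 35.8 and 110 ± 93.7 FPKM in the 3 groups. PCOS-MV replicate 3, at 245.5 FPKM of Inhba, lay inside the PCOS range. It held the highest level of Cyp19a1 and of each of these genes in its group, so 1 library weighs on these r values. For Cyb5a they were Pmvk (r = 0.9411), Acat2 (r = 0.919) and Ginm1 (r = 0.9146), the first 2 being enzymes of sterol synthesis. For Por they were Cdc42bpb (r = 0.9653), Smg5 (r = 0.9312) and Scamp4 (r = 0.9197). PCOS replicate 1 held the highest level of Por and of each of these genes, so 1 library weighs on the r values for Por. Shared groups and library scaling enter all the r values of this kind.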

How the data were processed

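RNA of whole ovaries was sequenced from 12 rats, 4 in each of 3 groups named by the labels. The authors deposited 1 table of FPKM values per transcript line. Their notes name STAR 2.5.1b and HTSeq 0.6.0, whereas the methods of the study describe another aligner and counter, and the genome build is not given in the sources used here. The library kit does not mark strand. The fold changes and p-values of the authors in the table were not used. The deposited FPKM values carry no counts, so no count test was run. Lines were collapsed to 19730 genes. A filter kept the 13430 genes whose average was 1 FPKM or more, a pseudocount of 1 was added before taking log2, and limma 3.58.1 (R 4.3.3) was run with each pair of groups in its own fit, using Benjamini-Hochberg adjustment and a threshold of 0.05. SE and intervals come from these fits. Single values and log2 ratios were tested with exact two-sided permutation, and the p-values of the ratios were adjusted in scipy 1.17.1. The script was tested on simulated data. The 5 members and all lists were chosen with earlier results of these data known. In each list the 3 genes with the largest change in PCOS among those passing, with groups not overlapping, were named, and other genes named were chosen after their values were seen. Alternatives tried were a pseudocount of 0.1, no filter, 1 model for all libraries, the replicate number as a block, rescaling by median ratio, a fold threshold and leaving out each library. Limma p-values set a group difference against the spread between these rats, moderated over the genes tested. Permutation p-values set it against all regroupings of the same libraries.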

Additional observations from a re-analysis of the deposited data

Results flagged for a closer look

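Por in Control replicate 1 was at 63.7 FPKM, a log2(FPKM + 1) of 6.02, above the other 3 control libraries, with a gap of 0.863 of the range of the group. That range was narrow, with the highest value 1.24 times the lowest. Por in PCOS-MV replicate 1 was at 80.8 FPKM, a log2(FPKM + 1) of 6.35, with a gap of 0.954 of the range. In 24 groups of values examined, 2 had such a library, against 1.2 expected by chance.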

How the results depend on the processing

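The rise of Cyp17a1 and Cyp19a1 in PCOS and their fall in PCOS-MV against PCOS passed the test in all 8 fits that left out 1 library, with changes of Cyp17a1 from 4.85 to 5.46 and from -6.78 to -5.08 and of Cyp19a1 from 1.67 to 1.82 and from -3.45 to -2.32. With a further threshold of 2-fold, 907 genes passed in PCOS against Control and 751 in PCOS-MV against PCOS. Sult1e1, entered without a filter on low values, changed by 0.83 in PCOS against Control with adjusted p = 0.0539 in limma. With a pseudocount of 0.1 the change was 2.76. Its permutation p could not move with the pseudocount, because the PCOS libraries lie wholly above the controls under either value, so it is no check. With libraries left out, the genes called ran from 2762 to 3915, from 2445 to 3354 and from 1 to 4 in the 3 comparisons. Small differences changed sign: in PCOS against Control Cyb5a ran from -0.12 to 0.27 and Por from -0.048 to 0.38. In PCOS-MV against PCOS Por ran from -0.32 to 0.10. In PCOS-MV against Control Cyp17a1 ran from -1.66 to 0.047 (without PCOS-MV replicate 2), Cyp19a1 from -1.71 to -0.57 with no change of sign, Cyb5a from -0.26 to 0.13, Por from -0.11 to 0.12, the ratio of Cyp17a1 to Cyp19a1 from -0.58 to 0.94 and that to Cyb5a from -1.47 to 0.054. No source says that the replicate numbers pair the samples. Deviations of same-numbered libraries had r from 0.0353 to 0.172 in PCOS-MV against PCOS, where 3 of 4 pairs were over 0.1, from -0.0327 to 0.0236 in PCOS against Control, where none were, and from -0.0534 to 0.216 in PCOS-MV against Control, where 1 was, so in no comparison did every pair exceed 0.1. With the replicate block, 0 genes passed in PCOS-MV against Control (limma, 1240 at an unadjusted p under 0.05), and no call of a member changed. Read depth is unknown, which limits what can be said of Sult1e1. The cause of these shifts was not tested.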

Other observations

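Markers of other cell types were summed in the same libraries. Leukocyte markers ran from 444 to 538 FPKM in Control, 421 to 613 in PCOS and 475 to 642 in PCOS-MV. Oocyte markers ran from 15.5 to 27.2, from 14.9 to 17.9 and from 17.99 to 28.1 FPKM. Adipocyte markers ran from 35.9 to 76.7 FPKM in Control, 12.1 to 15.3 in PCOS and 23.7 to 53.1 in PCOS-MV. Endothelium and smooth muscle markers ran from 274 to 644, from 295 to 345 and from 260 to 422 FPKM, with the highest value in Control replicate 3. Oviduct epithelium markers ran from 11.04 to 136, from 28.5 to 100 and from 16.8 to 32.4 FPKM. Hepatocyte markers ran from 68.2 to 74.9, from 192 to 392 and from 70.3 to 106 FPKM, mostly from Tf, the transferrin gene, and adrenal cortex markers ran from 67.9 to 124, from 48.4 to 94.8 and from 61.8 to 148 FPKM, almost all from Mrap.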
